A study of Mus musculus with 8 samples.

Results

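Potassium, sodium, calcium and hyperpolarization-activated cation channel genes were followed across adult oligodendrocyte progenitor cells (aOPC) and adult oligodendrocytes (aOL). A gene was taken as a channel gene by its symbol alone, when it began with Kcn, Scn, Cacn or Hcn in the form used for channel subunits and was named in the RNA tables or in the promoter, exon or intron columns of the hydroxymethylation tables. The rule found 137 of the 20871 gene symbols in the data, of which 93 were Kcn, 26 Cacn, 14 Scn and 4 Hcn genes. The symbol Scn2a1 is the older name of Scn2a. The rule uses no level and no difference between populations, but a symbol had to be listed in the RNA or the hydroxymethylation data. RNA levels were deposited for 39 of the 137 genes, and the other 98 were not in the RNA tables. All 137 had at least 1 CpG site in the gene body in the hydroxymethylation data, and 120 had a site in the promoter column. For the 98 genes outside the RNA tables, a listed site in the gene body or promoter was needed to enter the rule.

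The cells were sorted by fluorescence from the brains of C57BL/6 mice at postnatal day 60, from Pdgfra-H2BEGFP mice for aOPC and from Plp-EGFP mice for aOL, with no other treatment. DNA and RNA came from the same pellets, and each population had 2 RNA-seq libraries and 2 libraries of reduced representation hydroxymethylation profiling (RRHP), numbered 2 and 3 in the titles. A first replicate was not analysed here, and whether a replicate pooled several animals is not given in the sources used here. Groups followed the sample titles, since the tissue label of the aOL RRHP libraries names the Pdgfra reporter, and the aOL RNA titles call the cells pre-myelinating where the protocol has myelinating. The reporter lines differ between the populations, so line and population cannot be told apart. The RRHP library totals of aOPC were 7113237 (replicate 2) and 17121440 (replicate 3), and those of aOL were 15923775 and 27057859.

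Voltage-gated potassium channels (Kcna, Kcnd and Kcnq among them) open on depolarization and repolarize the membrane. Inward rectifiers (Kcnj) hold the resting potential and take up extracellular potassium, and the 2-pore-domain channels (Kcnk) carry leak current. Voltage-gated sodium channels (Scn) and calcium channels (Cacna) consist of a pore-forming alpha subunit with auxiliary subunits, and HCN channels carry a depolarizing current on hyperpolarization. Progenitors of the lineage receive synapses from axons and carry voltage-gated currents, whereas oligodendrocytes are known for inwardly rectifying potassium conductance, above all through Kcnj10 (Kir4.1).

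RRHP reads CCGG sites whose 5-hydroxymethylcytosine (5hmC) protected them during library preparation, so each value is a count at a CpG within CCGG. Windows around 8 of the sites with the lowest adjusted p in each direction are shown, because the site results turn on them. They are given on the plus strand of GRCm38, 5′ to 3′, with the CCGG site in capitals, and all lay in introns of the named gene in the RefSeq annotation.
Kcnj10, chr1:172349119-172349158: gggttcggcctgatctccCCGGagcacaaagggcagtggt
Kcnj10, chr1:172359619-172359658: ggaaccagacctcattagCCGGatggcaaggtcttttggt
Cacna1a, chr8:84506775-84506814: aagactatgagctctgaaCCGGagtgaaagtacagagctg
Cacna1a, chr8:84506680-84506719: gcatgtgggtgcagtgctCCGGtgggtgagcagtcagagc
Cacna1a, chr8:84437595-84437634: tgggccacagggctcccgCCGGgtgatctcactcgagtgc
Kcnj14, chr7:45820589-45820628: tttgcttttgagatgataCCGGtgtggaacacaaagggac
Kcna10, chr3:107189441-107189480: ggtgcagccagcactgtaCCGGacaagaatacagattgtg
Cacng8, chr7:3407909-3407948: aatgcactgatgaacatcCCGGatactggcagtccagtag

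The 250 bases upstream of the gene start are shown for the channel genes with the largest RNA differences in each direction, Kcnj10 and Kcne4. The sequences are from RefSeq (GRCm38.p6), on the strand of the gene (plus for both), with CCGG in capitals.
Kcnj10 promoter, chr1:172340960-172341209: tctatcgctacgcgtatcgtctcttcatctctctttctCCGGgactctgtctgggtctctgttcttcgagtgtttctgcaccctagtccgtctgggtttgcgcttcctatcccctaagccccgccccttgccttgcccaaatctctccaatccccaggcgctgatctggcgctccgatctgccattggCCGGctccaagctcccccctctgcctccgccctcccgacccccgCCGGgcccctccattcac
Kcne4 promoter, chr1:78816661-78816910: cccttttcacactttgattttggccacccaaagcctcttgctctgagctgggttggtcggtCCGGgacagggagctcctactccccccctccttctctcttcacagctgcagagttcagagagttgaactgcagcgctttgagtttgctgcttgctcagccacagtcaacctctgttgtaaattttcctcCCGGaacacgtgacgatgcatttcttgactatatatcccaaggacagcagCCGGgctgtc
Each window held 3 CCGG sites, with 17 CpG dinucleotides in the Kcnj10 window and 7 in the Kcne4 window. The 5 CpG positions listed by RRHP in the Kcnj10 window had 6 and 7 counts in aOPC against 4 and 11 in aOL. The 5 listed in the Kcne4 window had 40 and 60 counts in aOPC against 43 and 81 in aOL. Both promoters were thus read in all 4 libraries, at higher counts in Kcne4 than in Kcnj10.

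By RNA, the channel genes with the highest level per exonic length were Hcn2, Kcna1, Kcna6, Kcnk13, Kcnj10 and Cacnb4. The level was taken as the mean deposited log2 value over the 4 libraries less the log2 of the exonic length in kb, and it was 13.99 for Hcn2, a pacemaker-current channel. It was 12.86 for Kcna1 and 12.68 for Kcna6, which encode Kv1 delayed-rectifier subunits, and 12.40 for Kcnk13, a leak channel. Kcnj10 stood at 12.24, and Cacnb4, an auxiliary beta subunit of calcium channels, followed at 9.30. On the deposited log2 scale Hcn2 read 15.50 and 15.56 in aOPC against 15.74 and 15.87 in aOL, Kcna1 read 15.34 and 14.95 against 15.09 and 15.10, and Kcnk13 read 13.84 and 14.25 against 14.06 and 13.998. Of these 3 genes, Hcn2 was the one whose populations did not overlap, by 0.28 ± 0.19 log2 (standard error), and its adjusted p in limma was 0.415. Cacnb4 read 12.76 and 12.30 in aOPC against 12.35 and 12.44 in aOL.

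**Figure D1:**
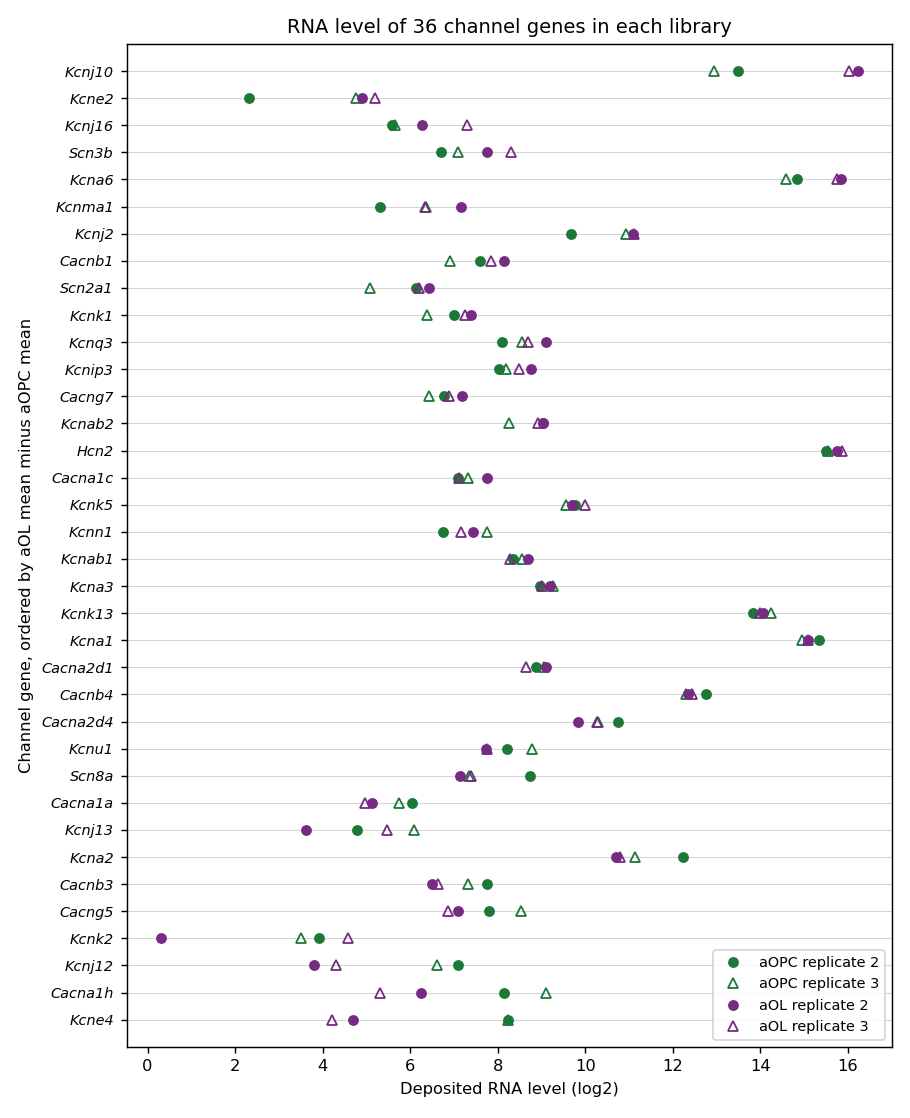
Deposited log2 RNA level (x axis) of 36 of the channel genes in the RNA tables (y axis, ordered by the mean of aOL less the mean of aOPC), with 1 point for each of the 4 libraries. Kcnj10, at the top, read 13.49 and 12.95 in aOPC against 16.23 and 16.03 in aOL, and Kcne4, at the bottom, read 8.23 and 8.25 against 4.69 and 4.20.

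Of the 39 genes, 37 passed the filter on low values (log2 of 5 or more in 2 or more libraries), and Kcne2 and Kcnk2 did not. None of the 37 was called by limma at p under 0.01 with an adjusted p under 0.05, where 0.0808% of all 11133 genes tested were called (0.00898% higher and 0.0719% lower in aOL). At an unadjusted p under 0.05, 14 of the 37 passed (37.8%, against 24% of all genes tested). Of these, 5 were higher in aOL (13.5%, against 12.1%) and 9 were lower (24.3%, against 12%). The populations did not overlap in 24 of the 37 (64.9%, against 61.8%), with 13 higher in aOL (31.9% of all genes were) and 11 lower (29.9%). The median difference was 0.03 log2, as over all genes at 0.02, and the median absolute difference was 0.75 log2, against 0.44 over all genes. With an intensity trend in the limma fit 1 channel gene was called, Kcnj10. Leaving out a library changed the count: 6 higher and 5 lower were called without aOPC replicate 2, 4 and 7 without aOPC replicate 3, and 0 and 2 without either aOL library. The counts at an unadjusted p under 0.05 ran from 2 to 8 higher and from 4 to 11 lower when a library was left out, with the lowest counts when an aOL library was left out. Over all genes these fits called 1906 higher and 1899 lower without aOPC replicate 2, 1102 and 872 without aOPC replicate 3, 27 and 87 without aOL replicate 2, and 19 and 87 without aOL replicate 3. Fewer cells of a kind and less RNA per cell cannot be told apart in these bulk samples.

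Among the inward rectifiers, Kcnj10 had the largest difference. It read 13.49 and 12.95 in aOPC against 16.23 and 16.03 in aOL. Both aOL libraries lay above both aOPC libraries, by 2.91 ± 0.27 log2, or 7.52-fold, with an adjusted p of 0.0780. Its partner Kcnj16 (Kir5.1), which forms heteromeric channels with Kir4.1, read 5.59 and 5.65 in aOPC against 6.28 and 7.31 in aOL, a difference of 1.18 ± 0.40 log2. Kcnj12, a strong inward rectifier, went the other way. It read 7.10 and 6.62 in aOPC against 3.80 and 4.32 in aOL, a difference of -2.80 ± 0.31 log2 with an adjusted p of 0.102. Kcnj2 read 9.67 and 10.94 against 11.10 and 11.11 and Kcnj13 read 4.79 and 6.10 against 3.61 and 5.48, so that Kcnj13 overlapped between the populations. The inward rectifiers thus held members on both sides, with 2 of 5 tested higher and 1 lower at an unadjusted p under 0.05, where 12.1% of all genes tested were higher and 12% lower.

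Among the voltage-gated potassium channel alpha subunits, the Kv1 gene Kcna6 was higher in aOL at an unadjusted p under 0.05. Kcna6 read 14.83 and 14.59 in aOPC against 15.84 and 15.76 in aOL, a difference of 1.09 ± 0.20 log2 with an adjusted p of 0.132. Of its relatives, Kcna2 read 12.23 and 11.14 against 10.71 and 10.79, and Kcna3 read 8.98 and 9.26 against 9.20 and 9.01. Kcnq3, which carries the M current, read 8.09 and 8.56 against 9.12 and 8.70, a difference of 0.58 ± 0.28 log2.

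Auxiliary potassium channel subunits held the largest difference of all channel genes. Kcne4, a single-pass beta subunit that modulates voltage-gated potassium channels, read 8.23 and 8.25 in aOPC against 4.69 and 4.20 in aOL. Both aOL libraries were lower, by -3.80 ± 0.25 log2, or 13.9-fold, and its adjusted p of 0.0611 was the smallest among the channel genes. Kcnip3, a calcium-binding Kv4 partner, read 8.02 and 8.19 in aOPC against 8.77 and 8.49 in aOL, and Kcnab1 and Kcnab2 overlapped between the populations. Kcne2 read 2.31 and 4.76 against 4.90 and 5.21 and stayed below the filter.

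Of the 3 leak channels and the 3 genes of the Slo and SK families tested, 1 passed an unadjusted p under 0.05, near the 24% of all genes that did. The leak channel Kcnk1 read 6.995 and 6.39 in aOPC against 7.39 and 7.25 in aOL, and Kcnk5 read 9.76 and 9.55 against 9.71 and 9.996. The other leak channel tested was Kcnk13, given above. Kcnk2, below the filter and not tested, read 3.92 and 3.50 in aOPC against 0.32 and 4.57 in aOL. Kcnu1 (Slo3), a pH- and voltage-gated channel, read 8.21 and 8.79 against 7.74 and 7.75, a difference of -0.75 ± 0.27 log2 with an unadjusted p of 0.0481 in limma. The large-conductance channel Kcnma1 read 5.31 and 6.36 against 7.17 and 6.34, and the small-conductance channel Kcnn1 read 6.75 and 7.75 against 7.44 and 7.17, both with overlapping populations.

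Among the sodium channel genes, the beta subunit gene Scn3b read 6.72 and 7.09 in aOPC against 7.76 and 8.31 in aOL, a difference of 1.13 ± 0.30 log2. Its adjusted p in limma was 0.157. Of the pore subunits, Scn2a1 read 6.13 and 5.08 against 6.43 and 6.21, and Scn8a read 8.73 and 7.34 against 7.14 and 7.39, with aOPC replicate 2 alone above the other 3 libraries. The pore genes Scn1a, Scn3a and Scn7a and the beta subunit gene Scn2b were not in the RNA tables.

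Of the 10 calcium channel genes tested, 4 were lower in aOL at an unadjusted p under 0.05 and 0 higher, where 12% of all genes tested were lower and 12.1% higher. Cacna1h, the pore of a low-voltage-activated (T-type) channel, read 8.14 and 9.11 in aOPC against 6.26 and 5.30 in aOL. Both aOL libraries were lower, by -2.85 ± 0.51 log2, with an adjusted p of 0.130. Cacna1a, the P/Q-type pore, read 6.03 and 5.75 against 5.14 and 4.97, a difference of -0.84 ± 0.22 log2. The L-type pore Cacna1c read 7.09 and 7.33 against 7.76 and 7.12 and overlapped. Cacnb3, a beta subunit, read 7.75 and 7.32 against 6.50 and 6.64, a difference of -0.96 ± 0.24 log2, whereas Cacnb1 read 7.60 and 6.92 against 8.16 and 7.86. Cacng5, a regulator of AMPA receptors, read 7.81 and 8.54 against 7.09 and 6.87, a difference of -1.20 ± 0.32 log2, and Cacng7 read 6.77 and 6.43 against 7.18 and 6.88. The alpha2delta subunit Cacna2d1 read 8.88 and 9.07 against 9.11 and 8.66.

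Genes that act with these channels gave a mixed picture. Of 30 genes for channel scaffolds, calmodulins and node or juxtaparanode partners, 19 were tested and none was called, with 3 higher and 3 lower at an unadjusted p under 0.05 (against 12.1% higher and 12% lower over all genes, as also for the lists that follow). Cntn2, which gathers Kv1 channels at the juxtaparanode, read 16.52 and 15.77 in aOPC against 17.16 and 17.02 in aOL, and the scaffold Dlg2 read 12.11 and 11.16 against 13.13 and 13.07. Calm3 read 13.67 and 14.28 against 12.85 and 12.76. Of 15 ion pump genes, 11 were tested, none was called, and 1 was higher and 1 lower at an unadjusted p under 0.05. These were Atp2a2, the calcium pump of the endoplasmic reticulum, at 14.20 and 13.77 against 15.23 and 15.05, and Atp1b1, a sodium pump beta subunit, at 9.55 and 8.42 against 6.18 and 7.19.

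The sorted populations were close to each other by oligodendrocyte markers. All 13 of these were listed, and their summed level (log2 of the summed linear values) was 22.68 and 22.49 in aOPC against 22.62 and 22.65 in aOL. At an unadjusted p under 0.05, 5 of the 13 were lower in aOL and 1 was higher. All 12 progenitor markers were listed as well. Their sums overlapped, at 17.56 and 17.29 in aOPC against 17.26 and 17.34 in aOL, but the sum is mostly that of Olig1, a gene of the whole lineage, which read 16.86 and 16.77 against 16.38 and 16.45. Of these 12, 5 were above 0 in the difference (aOL less aOPC), and at an unadjusted p under 0.05 none was higher and 2 were lower. The 2 were Neu4, at 9.90 and 7.07 against 3.03 and 3.61 (-5.17 ± 1.02 log2), and Vcan, at 8.87 and 5.27 against 2.49 and 3.24 (-4.20 ± 1.29 log2). Pdgfra itself read 7.54 and 5.47 against 4.98 and 1.63. Astrocytes also express Kcnj10, and the 10 astrocyte markers, all listed, summed to 14.96 and 14.08 in aOPC against 14.005 and 14.22 in aOL. These sums overlapped. Of the 10 markers 2 were above 0 in the difference, with a median of -0.68 log2, and at an unadjusted p under 0.05 none was higher and 2 were lower, Gjb6 (-2.88 ± 0.34 log2) and Gfap (-0.72 ± 0.25 log2). The part of astrocytes in the Kcnj10 values was not tested. The sums overlapped between the populations as well for the 10 of 13 neuron markers listed (12.74 and 12.94 against 12.80 and 12.87), for the 10 of 11 microglia markers (12.71 and 11.997 against 12.22 and 11.79) and for the 4 of 8 pericyte markers (8.40 and 8.33 against 7.61 and 9.98). Single markers did differ at an unadjusted p under 0.05. Of 8 neuron markers tested, 1 was higher in aOL (Eno2, 1.86 ± 0.37 log2) and 1 lower (Stmn2, -2.10 ± 0.46 log2). Of the 10 microglia markers 2 were above 0, with a median of -0.53 log2, and 0 were higher and 1 lower (Tmem119, -0.73 ± 0.26 log2). Of the 4 pericyte markers 2 were above 0, and 0 were higher and 1 lower (Anpep, -2.48 ± 0.77 log2). Of 10 endothelial markers 2 were listed, Cldn5 and Kdr, with sums of 9.07 and 9.37 in aOPC against 9.83 and 10.25 in aOL. Both were higher in aOL at an unadjusted p under 0.05 in limma. Cldn5 read 0.33 and 1.80 in aOPC against 5.92 and 7.13 in aOL (5.46 ± 0.69 log2), and Kdr, which makes up most of the sum, read 9.07 and 9.36 against 9.73 and 10.07 (0.69 ± 0.24 log2). The part of endothelial cells in the higher channel values in aOL was not tested.

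In gene bodies, where counts were summed over the sites with the gene in the exon or intron column, 3 of the 136 channel genes tested were called by edgeR at an adjusted p under 0.05. Of these, 2 were higher and 1 was lower in aOL, whereas 0.849% of all 18488 gene bodies were called (0.162% higher and 0.687% lower). At an unadjusted p under 0.05 there were 11 channel genes, or 8.09%, against 7.3% of all, with 4 higher (2.94%, against 2.82%) and 7 lower (5.15%, against 4.48%). The populations did not overlap in CPM (counts relative to the library total) for 53 of 136 (39.0%, against 38.8%). The median absolute difference was 0.12 log2, against 0.18 over all gene bodies. Leaving out a library moved the counts: 3 higher and 4 lower were called without aOPC replicate 2, 9 and 13 without aOPC replicate 3, and 1 and 0 without either aOL library. Over all 18488 gene bodies the same fits called 233 and 375, 1886 and 2319, 13 and 76 without aOL replicate 2, and 13 and 71 without aOL replicate 3.

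All 3 called genes were outside the RNA tables. Kcna10, a Kv1-type subunit (chr3:107183143-107195721), had 61 and 172 counts over 10 sites in aOPC against 370 and 595 in aOL. The difference was 1.25 ± 0.17 log2 with an adjusted p of 0.00575. Kcnj11 (Kir6.2, chr7:46097123-46100952), the pore of the ATP-sensitive potassium channel, had 48 and 141 counts over 18 sites in aOPC against 243 and 426 in aOL, a difference of 1.01 ± 0.19 log2 with an adjusted p of 0.0394. Kcnj14 (Kir2.4, chr7:45816467-45824747) had 111 and 195 counts over 21 sites in aOPC against 88 and 169 in aOL, a difference of -1.18 ± 0.23 log2 with an adjusted p of 0.0433.

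Each of these genes held sites that differed widely between the populations. In Kcna10 they were the 2 strands of the CCGG site shown above, at 0 and 0 counts in aOPC against 125 and 159 in aOL on the plus strand, and at 2 and 1 against 99 and 146 on the minus strand. In Kcnj11 it was a site in the 3′ UTR at position 46098514 of chromosome 7, at 1 and 0 against 100 and 159. In Kcnj14 it was the intronic site shown above, at 47 and 93 against 3 and 6. With only sites of at least 3 reads in every library, or without sites read in 1 population only, all 3 gene-body calls were lost, that of Kcna10 included. Without aOL replicate 2 or without aOL replicate 3, the Kcnj11 and Kcnj14 calls were lost.

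Kcnj10 was the channel gene with RNA whose gene body came closest to a call, and its sign was opposite to that of its RNA. Its 59 sites (chr1:172341210-172374085) had 783 and 1682 counts in aOPC against 1124 and 1739 in aOL, or 1.87 and 1.67 CPM per site against 1.20 and 1.09. Relative to the library totals both aOL libraries were lower, by -0.63 ± 0.13 log2, with an edgeR adjusted p of 0.0517 (0.002 in DESeq2). Outside 4 sites read in aOPC only, aOPC had 635 and 1390 counts. Of the 24 sites tested in the Kcnj10 gene body, 6 were called lower and 2 higher in aOL. The largest contrast lay 7.93 kb into the gene, where the first intronic site shown above had 92 and 173 counts in aOPC and none in aOL, which is at least 77.0-fold lower when the floor of 3 counts per library stands for 0. The second, at 18.43 kb, had 82 and 146 counts against 11 and 6, and at 7.14 kb a site went the other way, at 1 and 0 against 75 and 95. At the group of sites near 28 kb none was called.

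**Figure D2:**
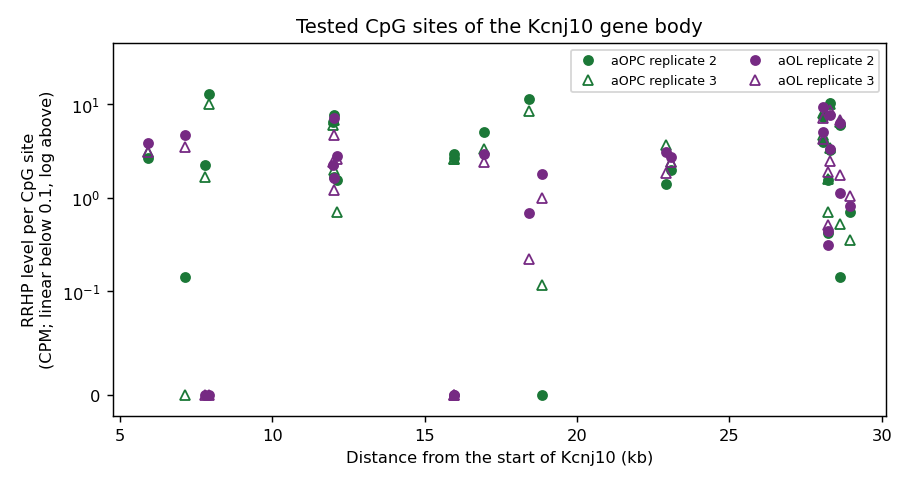
RRHP level in CPM (y axis, linear below 0.1 and logarithmic above) of the 24 tested CpG sites against their distance in kb from the start of Kcnj10 (x axis), with 1 point for each library. Sites at 7.78, 7.93 and 15.95 kb were read in aOPC and had 0 counts in both aOL libraries, whereas the sites near 28 kb had reads in all 4.

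The other gene bodies of channels with RNA differed less. Cacna1h had 591 and 1238 against 957 and 1588, a difference of -0.39 ± 0.13 log2 with an edgeR adjusted p of 0.370, and Cacna1a had 1281 and 3328 against 2362 and 3858, a difference of -0.38 ± 0.13 log2 with an adjusted p of 0.419. In both genes the RNA and the gene-body difference had the same sign. The gene body of Kcne4, the gene with the largest RNA difference, had 32 and 124 counts against 104 and 198 over 6 sites, and its difference of 0.19 ± 0.29 log2 was smaller than its error. Kcnj12 differed by 0.01 ± 0.15 log2 and Kcna6 by -0.10 ± 0.12. Over the 37 genes with both differences, 19 (51.4%) had the same sign, against 55.3% of 10388 genes, and Spearman's rho across genes was 0.08, against 0.14 over all. Genes are not independent replicates, and these values are a description with no test.

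**Figure D3:**
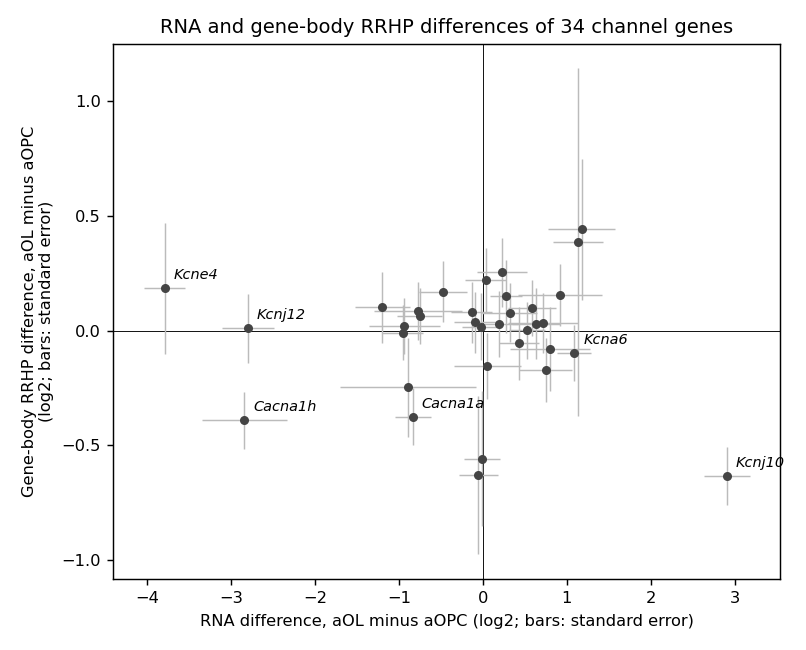
RNA difference (x axis) against gene-body RRHP difference (y axis), both aOL minus aOPC in log2, for 34 channel genes, with bars for the standard error of each fit. Kcnj10 lies at the right with 2.91 in RNA and -0.63 in RRHP, and Kcne4 at the left with -3.80 and 0.19.

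By channel family, the gene-body level was highest in the calcium channel gamma subunits, with medians from 1.04 to 1.12 CPM per site in the 4 libraries over 8 genes, and low in the 4 HCN genes (0.466 to 0.488) and the 4 sodium channel beta subunits (0.447 to 0.656). The sodium channel pore subunits, mostly absent from the RNA tables, had medians from 0.619 to 0.690 over 10 genes, and their differences between populations ran from -0.06 to 0.16 log2. The differences of the 15 inward rectifiers ran from -1.18 to 1.01 log2. Family medians of the difference ran from -0.31 log2 in the 4 sodium channel beta subunits to 0.12 in the 15 auxiliary potassium channel subunits tested. Single genes with at least 5 sites were highest for Kcna10 (1.60 CPM per site on average over the libraries), Kcne1 (1.59), Scn3a (1.55), Kcnv1 (1.52) and Kcnj10 (1.45), and of these 5 only Kcnj10 was in the RNA tables. The order differed between the populations, since Kcna10 had 0.858 and 1.005 CPM per site in aOPC against 2.32 and 2.20 in aOL, so that it was highest in aOL and below the other 4 in aOPC. Kcna1, among the highest by RNA, was near the low end at 0.156 CPM per site.

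Channels in the RNA tables were then set beside those outside them. The median gene-body level of the 39 listed genes was 0.805 CPM per site in aOPC replicate 2, 0.875 in aOPC replicate 3, 0.806 in aOL replicate 2 and 0.804 in aOL replicate 3. For the 98 genes not listed it was 0.634, 0.612, 0.634 and 0.642. Listed channels were thus higher in all 4 libraries, by 1.27, 1.43, 1.27 and 1.25 times, where the same ratio over all genes was 1.096, 1.16, 1.19 and 1.11. The ratios for channels and for all genes lay closer by other measures. Per kb of gene they ran from 1.27 to 1.43 for channels and from 1.20 to 1.29 for all genes, and over sites with at least 10 reads in 2 libraries from 1.20 to 1.38 and from 1.17 to 1.31. Whether channels differ from other genes in this ratio was not tested. The distributions overlapped widely. In aOL replicate 3 the middle 50% of listed genes lay between 0.515 and 1.03 CPM per site and that of genes not listed between 0.521 and 0.833. With means over genes in place of medians the average ratio was 1.16 and not 1.31. Absence from the RNA tables is not a measure of no expression, since how the authors chose the listed genes is not stated. The neuronal sodium channel gene Scn1a, which was not in the RNA tables, had gene-body reads in every library, at 257 and 713 counts in aOPC against 644 and 1214 in aOL.

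**Figure D4:**
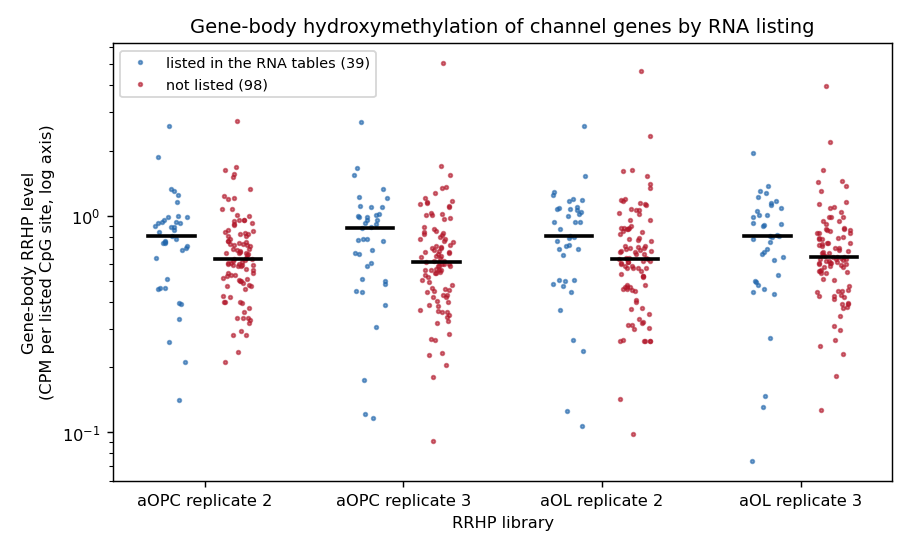
Gene-body RRHP level of each channel gene in CPM per listed CpG site (y axis, log scale) in the 4 libraries (x axis), for the 39 genes in the RNA tables and the 98 genes not in them, with medians as black lines. The medians of the listed genes lie between 0.804 and 0.875 and those of the others between 0.612 and 0.642, and the points overlap.

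Promoters had the reverse order. The median promoter level of the 35 listed genes with a promoter site was 0.880, 0.867, 0.977 and 0.898 times that of the 85 genes not listed, in the same order of libraries, and over all genes this ratio was 0.895, 0.609, 0.545 and 0.632. The level itself stood out in aOPC replicate 2, at 0.307 CPM per site in listed channels against 0.127, 0.120 and 0.151 in the other libraries. Over all listed genes it was 0.320 against 0.114, 0.103 and 0.144, so the aOPC libraries were unlike each other at promoters. The median gene length was 41.7 kb in listed and 44.7 kb in unlisted channels, and the median CCGG density was 1.05 and 1.13 sites per kb. The promoter column overlapped a CpG island in 80.0% of the listed and 68.2% of the unlisted channels with a promoter site, against 83.5% and 40.4% over all genes. RefSeq promoter sequences, from 250 bases before to 50 after the start, matched 29 listed and 71 unlisted channels, and the palindrome CCGG was found in 24 (82.8%) and 52 (73.2%) of these, where the shares over all genes were 86.3% of listed and 53.9% of unlisted genes. The median gene-body difference was 0.02 log2 in 38 listed genes and 0.03 in 98 unlisted genes, with 23 and 58 above 0.

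No promoter of the 112 channel genes tested was called by edgeR, where 0.768% of all 14579 promoters were (0.418% higher and 0.35% lower), and none was called by DESeq2. At an unadjusted p under 0.05, 4 were higher in aOL and 0 lower (3.57% in all, against 5.97% of all promoters, 4.18% higher and 1.79% lower). Scn4a, the skeletal muscle sodium channel, had 1 and 6 counts in aOPC against 27 and 28 in aOL over 4 sites, a difference of 2.55 ± 0.66 log2 with an adjusted p of 0.0749. Kcnv1, a silent Kv modifier, had 19 and 34 against 57 and 75, or 2.67 and 1.99 CPM (without TMM scaling) against 3.58 and 2.77. Kcnd1, a Kv4 channel, had 31 and 50 against 63 and 140, or 4.36 and 2.92 CPM against 3.96 and 5.17, so that its populations overlapped. The smallest unadjusted p on the other side was that of Cacna1a at 41 and 43 against 24 and 52, a difference of -0.66 ± 0.38 log2. The promoters of Kcnj10 (23 and 19 against 8 and 45) and of Kcne4 (61 and 122 against 91 and 170) differed by -0.29 ± 0.48 and 0.05 ± 0.46 log2, within their errors. Without aOPC replicate 3, 10 channel promoters were called higher, in a fit that called 1399 higher and 209 lower of all.

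At single CpG sites, 9871 sites lay in channel genes and 3268 were tested (at least 10 reads in at least 2 libraries). Of these, 41 (1.25%) were called higher and 25 (0.765%) lower in aOL by edgeR, against 1.21% and 1.08% of all 443062 sites tested (2.29% together). At an unadjusted p under 0.05 there were 199 higher and 90 lower, where 5.45% and 4.31% of all sites were (9.75% together). Of the 66 called sites, 59 were intronic and 7 exonic. No called site lay in a promoter or in a CpG island, where 86 channel sites were tested. The sites fell in 32 genes, of which 28 held a higher and 8 a lower site. Cacna1a held 18 of the 66, of 82 tested in the gene, with 12 lower and 6 higher, and Kcnj10 held 8. Cacna1h and Cacna1c followed with 3 each. Where each library had to hold 10 or more reads, 0 channel sites were called higher and 2 lower, against 229 and 261 of 171055 sites in all. Without aOPC replicate 3 the counts were 5 higher and 16 lower (523 and 2521 of all sites), and without aOL replicate 2 they were 25 higher and 22 lower (3500 and 4387 of all sites).

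The called sites were mostly on-off contrasts. The population with the lower value had 3 or fewer counts in both libraries at 34 of the 41 higher and 17 of the 25 lower sites, 77.3% together, close to 76.4% of all called sites. The neighbouring Cacna1a sites shown above had 39 and 111 and 36 and 108 counts in aOPC with none in the aOL libraries, which makes them at least 40.0-fold and 38.0-fold lower by the same floor, and the third Cacna1a site shown had 77 and 92 counts with none in aOL, at least 54.1-fold lower. In the same gene a site at position 84549263 of chromosome 8 had 0 and 1 counts in aOPC against 49 and 109 in aOL. The site shown for Cacng8, an AMPA receptor regulator, had no count in aOPC against 87 and 110 in aOL, which is at least 16.0-fold higher. In Kcnd3, a Kv4 pore gene, both called sites were higher in aOL, at 2 and 0 against 49 and 70 and at 2 and 1 against 42 and 61. The opposite strand of the same CCGG was listed for 34 of the 66 called sites and called for 8, the same way for 6.

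Sites read in 1 population only were unevenly spread over the genome. The genome was cut into 5 Mb bins, and each of 532 bins with at least 100 tested sites was ranked by the share of its sites that had 10 or more reads in each library of 1 population and none in the other, whose median was 0.325%. The 50 top-ranked bins held 35 of the 66 called channel sites (53.0%) and 9.12% of the channel sites tested. Over all sites tested, those outside genes included, the shares were 44.9% and 9.17%. The bin of Cacna1a ranked 12 of 532 with a share of 8.45%, that of Kcnj10 and Kcnj9 ranked 20 with 6.84%, and that of Kcnj11 and Kcnj14 ranked 52 with 3.37%. The bin of Kcna10 and Kcnd3 ranked 140, with 0.941%. These shares count the channel sites themselves, which made up 11 of the 93 such sites in the bin of Cacna1a and 4 of 64 in that of Kcnj10, so that called sites with no reads in 1 population fall in high-ranked bins in part by construction. The part of the bin or of the reporter line in the site and gene-body results was not tested.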

How the data were processed

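RNA and RRHP data from 2 aOPC and 2 aOL replicates each were used. The channel genes and the gene lists were chosen with earlier results of these data known. The deposited RNA values are log2 expression per gene symbol, for 11315 genes. The labels name BWA, DESeq2 1.2.5 and mm10, and the study's methods name exon counting with featureCounts and DESeq2. Quantiles of these deposited log2 values were almost the same between libraries (all medians 10.57), so a shift shared by most genes cannot be seen, and they carry no depth or strand setting, so overlapping genes cannot be told apart. limma 3.58.1 was fitted to them, with population as the only term, where the study's methods used counts.

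For RRHP, the authors deposited unscaled read counts for every CpG and strand, aligned by the authors to mm10, with the authors' promoter, exon, intron and CpG island columns. The aligner and the handling of duplicates are not given in the sources used here. A site missing from a library was given a count of 0 over the union of 1497075 sites. All 9871 channel sites (100%) lay at a CCGG of GRCm38. Differences in them came from edgeR 4.0.16 (quasi-likelihood test, TMM on library totals, filterByExpr for gene bodies and promoters), adjusted by Benjamini and Hochberg over all features. DESeq2 1.42.0 was an alternative for RRHP. The floor of 3 counts was 0.422, 0.175, 0.188 and 0.111 CPM in aOPC replicates 2 and 3 and aOL replicates 2 and 3. Reads had no molecular identifiers, so the floor covers counting error only. The p-values measure the spread between these samples, and exact permutation of 2 libraries against 2 cannot go below 0.333.

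The genes named were those called, the 8 largest RNA differences in each direction at an unadjusted p under 0.05 without overlap, the 6 highest by RNA, a panel of 34 channel genes, the 3 gene bodies and promoters with the lowest p in each direction, the 5 highest gene bodies, and the 6 sites with the lowest adjusted p in each direction. Some genes that this rule takes are not reported here, in the text or the plots, but stay in the counts. Other genes named as examples were chosen after their values were seen. RefSeq GRCm38.p6 gave positions, lengths and sequences. The fits were tested on simulated data, where the RRHP counts had a fixed spread and no planted on-off contrasts. That test therefore does not cover sites with such contrasts. The work ran in R 4.3.3 and in Python 3.11.15, with matplotlib 3.10.9 for plots and pandas 2.3.3, numpy 2.4.6 and scipy 1.17.1 for tables. Alternatives were other scalings, filters and tools, a replicate block, and leaving out each library.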

Additional observations from a re-analysis of the deposited data

How the results depend on the processing

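In RNA, with 0 channel genes called either way, the count became 1 higher with an intensity trend, 1 higher and 2 lower with a replicate block, and 0 to 6 higher and 2 to 7 lower when a library was left out. At an unadjusted p under 0.05 the 5 higher became 3 with the trend and 2 to 8 without a library, and the 9 lower became 4 with values of at least 5 in every library, 4 with the trend and 4 to 11 without a library. In gene bodies the 2 higher became 0 with at least 3 reads in every library, 0 without sites read in 1 population only and 1 to 9 without a library. The 1 lower became 2 with DESeq2, 2 with no filter on low counts, 0 under both site filters and 0 to 13 without a library. In promoters 1 was called higher with no filter on low counts (Scn4a) and 0 to 10 without a library. At sites the 41 higher became 0 with at least 10 reads in every library, 20 with DESeq2 and 5 to 54 without a library, and the 25 lower became 2 with at least 10 reads in every library and 16 to 26 without a library. The level ratio of listed to unlisted channels was 1.31, and 1.16 with means over genes. The difference in median change between these sets was -0.01 log2, from -0.059 to 0.039 without a library. The filters on reads in every library or in both populations remove many sites of largest contrast by construction. Where a call rests on such sites, as in Kcna10, its loss under them says little. Kcnj11 and Kcnj14 held 0 sites read in 1 population only, so that filter removed none of their sites, yet their calls were lost under it. The Kcnj14 site of largest contrast had at least 3 reads in every library, and that call was lost under the filter on reads as well. The causes of these losses were not tested. Over all genes, leaving out aOPC replicate 3 took the called gene bodies from 30 higher and 127 lower to 1886 and 2319, and in each such fit the lone sample is assumed to vary like the other population.

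Signs turned when a library was left out, with log2 differences from -0.090 to 0.55 for the RNA of Cacna1c, -0.32 to 0.14 for Cacna2d1, -0.37 to 0.095 for Cacnb4, -0.25 to 0.14 for Kcna1 and -0.23 to 0.19 for Kcnk13, and from -0.12 to 0.075 for the gene body of Kcne1, -0.15 to 0.13 for Kcnv1 and -0.13 to 0.0092 for Scn3a. None of these was called. The Kcnv1 gene body also turned to -0.014 with 3 or more reads in each library.

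The replicate numbers are shared between the populations but come from different mouse lines, and the correlation of same-numbered deviations was -0.0736 in RNA and -0.415 in gene bodies, so they do not pair the samples. With the replicate block the counts were 1 higher and 2 lower in RNA, 2 and 1 in gene bodies, 0 and 0 in promoters, and 56 and 30 at sites. The depth of aOPC replicate 2, at 7113237 counts, limits the RRHP comparison, and sites under 10 reads in 2 libraries were not tested. At promoters the level per site of aOPC replicate 2 also stood above that of the other libraries.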

Other observations

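Outside the comparisons above, the RRHP level per site was highest of all channel genes in Kcnv2, a silent Kv modifier known from photoreceptors, whose gene body had only 2 listed sites. It had 39 and 173 counts in aOPC against 148 and 215 in aOL, a difference of 0.07 ± 0.28 log2, and it was not in the RNA tables. Kcnj13 followed with 4 sites, at 74 and 185 counts against 166 and 210. Both genes have fewer than 5 listed sites, so that single CCGG sites set their level.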
